A study of Mus musculus with 401 samples.

Results

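The 10 genes of fatty acid oxidation and fuel choice described here, Pdk4, Cpt1a, Cpt1b, Cpt2, Acadm, Acadl, Hadha, Ppargc1a, Ppara and Ppard, were taken by symbol from 43633 gene identifiers, and each had a row in the counts of both sets of samples. They were measured by RamDA-seq, a full-length single-cell RNA-seq method, in single fully grown oocytes at the germinal vesicle (GV) stage and in the pooled cumulus cells that surrounded each of them. All mice were B6D2F1 females, the cross of C57BL/6 and DBA/2. In the first set, taken after hyperovulation, Young mice were 2 months old (2 mice), Middle mice 9 months (4 mice) and Old mice 14 months (2 mouse labels, of which 1 joins more than 1 mouse), all fed ad libitum, and CR mice were 9 months old and had received a 40% calorie restriction from adulthood (3 mice). In the second set, 2mo (5 mice), 4mo (8 mice), 9mo (4 mice) and 14mo (5 mice) were hyperovulated and named by their age in months, and 2moNoH mice (8 mice) were 2 months old and not hyperovulated. Hyperovulated mice received eCG or CARD HyperOva, an antiserum against inhibin combined with eCG, and ovaries were taken 48 h later. The complexes were kept in a medium with IBMX, which holds oocytes at the GV stage, and cumulus lysates were diluted before reverse transcription.

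Fatty acids enter mitochondria bound to carnitine. Cpt1a (the liver form) and Cpt1b (the muscle form) encode the carnitine palmitoyltransferases of the outer membrane, which catalyse the rate-limiting step, and Cpt2 encodes the enzyme of the inner membrane that returns the chain to coenzyme A. Acadm and Acadl encode the medium-chain and long-chain acyl-CoA dehydrogenases of the first step of beta-oxidation, and Hadha the alpha subunit of the trifunctional protein that carries out the later steps on long chains. Pdk4 encodes a kinase that inhibits the pyruvate dehydrogenase complex and so limits the entry of glucose carbon into the citric acid cycle. Ppara and Ppard encode nuclear receptors that respond to fatty acids, and Ppargc1a encodes the coactivator PGC-1alpha. Oocytes take up pyruvate and use it as their main fuel, cumulus cells carry out glycolysis and pass pyruvate to the oocyte, and beta-oxidation is known to support oocyte maturation.

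The first set held 73 oocyte libraries of 559305 to 4536690 counts and 71 cumulus libraries of 848243 to 2501005 counts, and the second 127 oocyte libraries of 1238441 to 2583456 counts and 128 cumulus libraries of 510029 to 1147286 counts. The summed oocyte markers stood at 36.2% to 132% of the median oocyte library in the oocytes of the first set and at 73.6% to 125% in those of the second. Beside these libraries, 1 pair of a Middle mouse was left out, because its oocyte library held 1.06% of the median level of oocyte markers. The summed cumulus markers in oocyte libraries reached 26.7% of the median cumulus library in the first set, with 18 libraries above 5%, and 1.73% in the second, so levels in the 2 cell types are given from the second set. Levels are in CPM, each gene's counts relative to the library total after TMM scaling (which corrects for differences in composition), from counts summed per mouse and cell type. In pooled cumulus cells, fewer cells of a type and less RNA per cell cannot be told apart.

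In 2mo mice, Pdk4, Cpt1a and Acadl RNA stood at higher CPM in cumulus cells, and Cpt2, Ppara and Ppard RNA at higher CPM in oocytes. CPM is a share of the counts, and amounts of RNA per cell were not computed. The bases before the start of a pair of genes higher in cumulus cells (Pdk4 and Acadl) and of a pair higher in oocytes (Cpt2 and Ppard) are shown, because these genes lie on opposite sides of the comparison of cell types. Cpt1a is not shown, because its RefSeq window lies inside the GENCODE gene, and it held 14 CG pairs and 2 GC boxes. They are the RefSeq GRCm38.p6 sequences upstream of the start site, without the bases that GENCODE places in the gene, each read on the strand of its gene. Pdk4 is shown at chr6:5496310-5496528 (minus strand), Acadl at chr1:66863310-66863559 (minus strand), Cpt2 at chr4:107923611-107923839 (minus strand) and Ppard at chr17:28232504-28232699 (plus strand). Capitals mark a CCAAT box (CCAAT, or ATTGG on the other strand) or a GC box (GGGCGG, or CCGCCC).
Pdk4: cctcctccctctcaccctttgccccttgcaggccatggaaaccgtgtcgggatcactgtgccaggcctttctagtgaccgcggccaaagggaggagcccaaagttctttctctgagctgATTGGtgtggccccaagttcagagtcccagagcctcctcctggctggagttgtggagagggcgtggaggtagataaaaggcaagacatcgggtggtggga
Acadl: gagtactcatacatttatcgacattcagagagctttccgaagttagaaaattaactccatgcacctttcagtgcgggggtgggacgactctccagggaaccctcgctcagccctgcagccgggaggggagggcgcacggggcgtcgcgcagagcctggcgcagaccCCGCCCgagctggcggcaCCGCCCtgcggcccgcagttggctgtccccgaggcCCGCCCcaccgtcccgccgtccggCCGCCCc
Cpt2: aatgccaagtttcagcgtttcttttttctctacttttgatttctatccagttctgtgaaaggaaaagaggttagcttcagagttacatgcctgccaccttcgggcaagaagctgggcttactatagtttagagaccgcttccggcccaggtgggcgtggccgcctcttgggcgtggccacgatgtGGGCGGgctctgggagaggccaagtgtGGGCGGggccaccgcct
Ppard: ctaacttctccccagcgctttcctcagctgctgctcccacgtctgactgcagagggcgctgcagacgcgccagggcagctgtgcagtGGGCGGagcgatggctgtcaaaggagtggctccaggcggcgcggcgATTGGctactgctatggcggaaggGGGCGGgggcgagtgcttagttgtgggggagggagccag

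RefSeq promoter windows were found for 9 of the 10 genes, all but Cpt1b. Over the 250 bases upstream of the start site, Pdk4 held 6 CG pairs and no GC box, against 25 CG pairs and 4 GC boxes in Acadl, 13 and 2 in Cpt2 and 22 and 3 in Ppard (2 of the 3 lie in the stretch shown). The median of 32851 windows of this length was 6 CG pairs, and 32.7% held a GC box and 33.8% a CCAAT box on either strand. No FOXO core (GTAAACA, in 3.17% of windows), no direct repeat of the kind PPARs bind (2 copies of AGGTCA around any 1 base, 0.0335%) and no CAAGGTCA, the site of estrogen-related receptors (1.33%), was found in the windows of these 9 genes, on either strand. The number of CG pairs did not divide the genes by cell type, since Acadl, higher in cumulus cells, and Ppard, higher in oocytes, both lay far above the median.

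Pdk4 (ENSMUSG00000019577, GRCm38 chromosome 6, 5483351 to 5496309, minus strand) showed the widest gap between the cell types. In CPM scaled over both cell types, the cumulus cells of the 5 2mo mice stood at 68.8, 121, 61.7, 48.0 and 60.6, and their oocytes at 0, 0, 0.31, 0.54 and 0.40. Every cumulus value was far above every oocyte value, and the log2 difference was 7.98 (95% interval 5.98 to 9.99, edgeR, FDR = 4.57e-19). It was 8.01 (6.54 to 9.47, FDR = 1.03e-24) in 2moNoH mice. In the whole second set, 17 of 127 oocyte libraries (13.4%) held any Pdk4 count, with at most 7 counts. The mean Pdk4 level in 2mo oocytes was 0.348% of that in cumulus cells, while the summed cumulus markers stood at 0.81%. The single markers ran from 0.19% (Fst) to 14.3% (Kitl), so Pdk4 in oocytes lay within the range of genes taken as cumulus markers, and the part of cumulus RNA in its oocyte value was not tested.

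Cpt1a (ENSMUSG00000024900, chromosome 19, 3322334 to 3385733, plus strand) was also higher in cumulus cells. Its cumulus levels in the 5 2mo mice were 60.5, 40.3, 58.6, 60.4 and 44.4 CPM and its oocyte levels 1.46, 1.11, 1.32, 1.75 and 0.81 CPM, with no overlap. The log2 difference was 5.33 (4.84 to 5.83, FDR = 9.62e-32) in 2mo and 5.75 (5.35 to 6.15, FDR = 5.19e-39) in 2moNoH mice. The oocyte level was 2.44% of the cumulus level, above the 0.81% of the summed cumulus markers. Of the single markers, only Cyp19a1 (12.2%) and Kitl (14.3%) stood above it, and the next was Foxl2 (1.15%). The part of cumulus RNA in the oocyte value of Cpt1a was not tested. Cpt1b, the muscle form, was close to the limit of detection. It had 33 counts of 20541299 in 2mo cumulus cells and 1 of 51518550 in oocytes, a ratio of 82.8 (exact 95% interval 13.9 to 3367, for counting error alone). In 2moNoH mice it had 48 of 27624480 in cumulus cells and 0 of 63333192 in oocytes, at least 36.7-fold higher in cumulus cells against a limit of 3 counts over the group. Cpt1b lies wholly inside the readthrough gene Gm44502 and 58.6% of its nonzero values in the second set were not whole, so its reads were shared between genes and its level is uncertain. For Acadm 46.3% of the nonzero values were not whole, so its reads were also shared. Acadl overlaps the pseudogene Gm15793 by 495 bases, but 0.402% of its nonzero values were not whole.

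Cpt2 (ENSMUSG00000028607, chromosome 4, 107903981 to 107923610, minus strand), the partner enzyme of the inner membrane, was opposite to Cpt1a. Oocytes of the 5 2mo mice held 108, 110, 144, 111 and 112 CPM and their cumulus cells 29.1, 26.4, 37.01, 37.1 and 29.3 CPM. The lowest oocyte value was above the highest cumulus value. Cumulus cells minus oocytes gave a log2 difference of -1.87 (-2.19 to -1.55, FDR = 2.70e-16) in 2mo and -2.28 (-2.54 to -2.02, FDR = 3.02e-24) in 2moNoH mice. Of the dehydrogenases, Acadl was higher in cumulus cells, with 16.0 to 24.5 CPM against 2.32 to 3.62 CPM in oocytes of the 5 mice. Its log2 difference was 2.91 (2.49 to 3.33, FDR = 7.31e-20) in 2mo and 2.67 (2.34 to 3.01, FDR = 4.41e-23) in 2moNoH mice.

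Acadm and Hadha were closer to even. Acadm stood at 9.86 to 18.3 CPM in cumulus cells and 9.46 to 12.3 CPM in oocytes of 2mo mice, which overlapped, and its log2 difference of 0.32 (-0.04 to 0.68, FDR = 0.10) did not pass the 5% threshold. In 2moNoH mice it passed, at 0.72 (0.43 to 1.01, FDR = 9.58e-06). Hadha stood at 58.4 to 88.5 CPM in cumulus cells and 59.5 to 74.0 CPM in oocytes, and its log2 difference was 0.09 (-0.13 to 0.31, FDR = 0.47) in 2mo and 0.16 (-0.01 to 0.34, FDR = 0.088) in 2moNoH mice. These small differences moved with the scaling. The median over all genes was 0.07 in 2mo and 0.24 in 2moNoH mice under TMM, and 0.20 and 0.35 under DESeq2's size factors, and with those the log2 difference of Acadm in 2mo mice was 0.46 and that of Hadha in 2moNoH mice 0.27, both past the threshold.

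Of the regulators, both receptors were higher in oocytes. Ppard stood at 45.7 to 62.9 CPM in the oocytes of 2mo mice and at 8.76 to 15.2 CPM in their cumulus cells. Its log2 difference, cumulus cells minus oocytes, was -2.10 (-2.50 to -1.69, FDR = 2.12e-14) in 2mo and -1.83 (-2.15 to -1.51, FDR = 4.05e-16) in 2moNoH mice. Ppara, at 9.18 to 12.9 CPM in oocytes and 2.66 to 5.23 CPM in cumulus cells, gave -1.39 (-1.85 to -0.93, FDR = 1.67e-07) and -2.03 (-2.44 to -1.61, FDR = 2.39e-14). Ppargc1a was near the limit of detection in both, with 30 counts in 2mo oocytes and 9 in their cumulus cells. Its log2 difference was -0.88 (-2.21 to 0.45, FDR = 0.20) in 2mo and -2.50 (-4.18 to -0.83, FDR = 0.00041) in 2moNoH mice. The calls of Ppard and Ppara, and that of Ppargc1a in 2moNoH mice, held when any 1 mouse was left out.

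Levels per kilobase used the length implied by the deposited counts and RPKM, for example 3511 bases for Pdk4, 2391 for Cpt2 and 8730 for Hadha. This is not the span on the chromosome and need not be the length of the transcripts present, and the order depends on it. On this scale, the order of the levels was not the same in the 2 cell types. In 2mo oocytes, Cpt2 came first with 48.9 ± 6.3 CPM per kb (SD, n = 5), then Ppard with 10.8 ± 1.6 and Hadha with 7.58 ± 0.69. Ppara (2.85 ± 0.34) and Acadm (2.77 ± 0.30) overlapped, and Acadl followed with 1.42 ± 0.28, Cpt1a with 0.300 ± 0.082, Ppargc1a with 0.111 ± 0.073 and Pdk4 with 0.071 ± 0.069, where the mice of Ppargc1a overlapped with those of both its neighbours. In cumulus cells Pdk4 came first with 20.5 ± 8.0 CPM per kb, and its lowest mouse overlapped with Cpt2 and Cpt1a. Cpt2 (13.3 ± 2.1), Cpt1a (12.3 ± 2.3) and Acadl (10.6 ± 1.8) lay close together and overlapped, as did Hadha (8.08 ± 1.4) with Acadl. Acadm (3.45 ± 0.80), Ppard (2.57 ± 0.55), Ppara (1.07 ± 0.34), Cpt1b at 0.423 and Ppargc1a (0.062 ± 0.052) were lower. Among the kinases of pyruvate dehydrogenase, the leading form in oocytes was Pdk3 (10.7 ± 1.1 CPM per kb), and Pdk1 (8.65 ± 1.1) and Pdk3 (7.54 ± 2.8) stood beside Pdk4 in cumulus cells. The plot of levels per kilobase shows both orders.

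**Figure D1:**
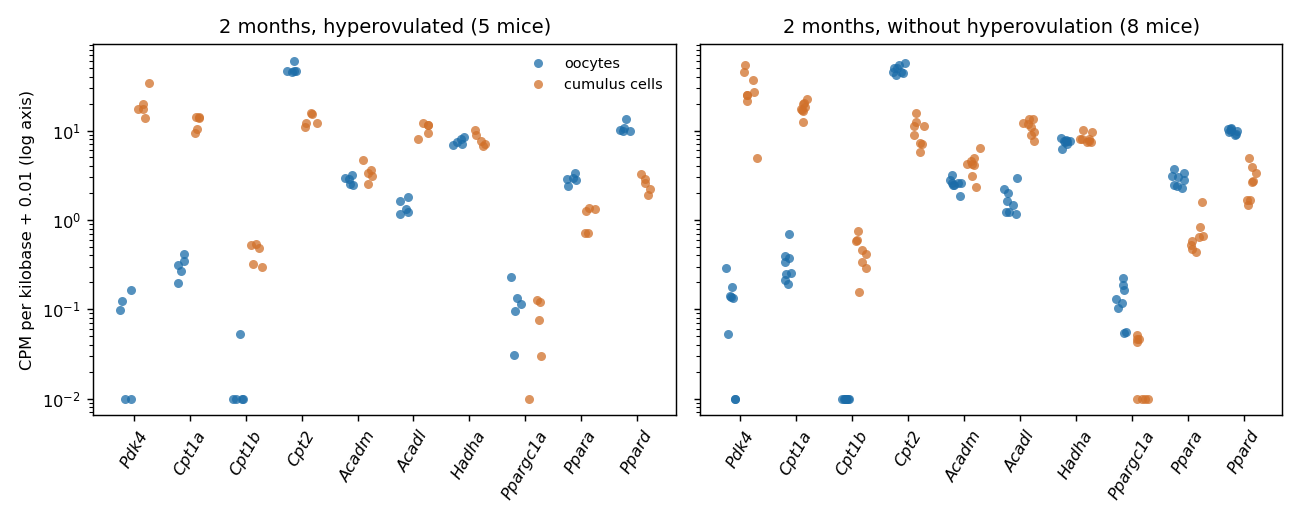
Levels of the 10 genes in CPM per kilobase plus 0.01 (log axis) in oocytes and cumulus cells of the second set, each point 1 mouse at 2 months, with hyperovulation (left, 5 mice) and without (right, 8 mice). Pdk4 and Cpt1a are high in cumulus cells, Cpt2 and Ppard in oocytes, and the points of Hadha and Acadm overlap.

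Of the 10 genes, 7 passed the test between cell types in 2mo mice (4 higher in cumulus cells, 3 higher in oocytes) and 9 in 2moNoH mice (5 and 4). Among all genes tested 71.6% and 76.6% passed, so these counts are near the background. The surrounding pathways were taken from lists of 77 genes, whose counts are a description beside the 12862 genes higher in cumulus cells and 11525 higher in oocytes among all 34083 genes tested in 2mo mice. Of 13 other genes of mitochondrial beta-oxidation, 9 were higher in cumulus cells of 2mo mice and none in oocytes, with a median log2 difference of 2.83 against 0.07 over all genes. In 2moNoH mice 10 were higher in cumulus cells and none in oocytes. Of the pyruvate dehydrogenase complex with its kinases and phosphatases, 3 of 10 were higher in cumulus cells and 6 in oocytes, with a median of -0.62. Of the 11 PPAR targets outside oxidation that were tested, 8 were higher in cumulus cells and 2 in oocytes.

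Among the largest differences in these lists were those of Abcd2, a peroxisomal transporter of fatty acids (log2 difference 9.28, 73.3 CPM in cumulus cells against 0.096 in oocytes of 2mo mice) and Ucp2, a mitochondrial carrier (7.12). In 2moNoH mice Acsl5, an acyl-CoA synthetase, differed by 6.53. On the side of oocytes were Ppargc1b, the relative of Ppargc1a (-4.15, 1.16 CPM in cumulus cells against 22.6 in oocytes of 2mo mice), Pdhx, the E3-binding protein of pyruvate dehydrogenase (-3.57, 21.7 against 257), and the acyl-CoA synthetase Acsl1 (-2.91, 11.2 against 84.3). Esrrg, an orphan nuclear receptor, was also on this side in 2moNoH mice (-3.70, 6.30 against 82.4). Each of these differences had an FDR below 0.05 in edgeR.

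With age, Pdk4 had the lowest FDR of the 10 genes in cumulus cells of the second set, but no change passed over mice in the fit of all groups. In CPM scaled within cumulus cells, Pdk4 stood at 81.5, 142, 72.1, 56.8 and 71.7 in the 5 2mo mice (84.9 ± 33.2, SD). In 4mo mice it ran from 22.1 to 190 with a median of 63.7, and in the 4 9mo mice it stood at 94.7, 71.8, 53.7 and 45.3. In the 5 14mo mice it stood at 42.6, 15.7, 26.7, 39.02 and 37.5 (32.3 ± 11.03). All 14mo mice lay below all 2mo mice, while the 4mo mice overlapped with both and the 9mo mice with the 2mo mice. The log2 difference of 14mo minus 2mo was -1.36 (-2.23 to -0.50), with FDR = 0.40 over all genes (edgeR, sums per mouse), where 0.0605% of genes passed and 1.44% did not overlap between the groups. Tested over libraries, it was -1.21 and passed (FDR = 0.041, with 0.768% of genes). Libraries of 1 mouse share their animal and are not independent, so FDR values over libraries, here and below, can be too small. Over mice, in a fit of these 2 groups alone, the log2 difference was -1.35 and also passed (FDR = 0.044). Leaving out any 1 mouse gave -1.48 to -1.10.

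**Figure D2:**
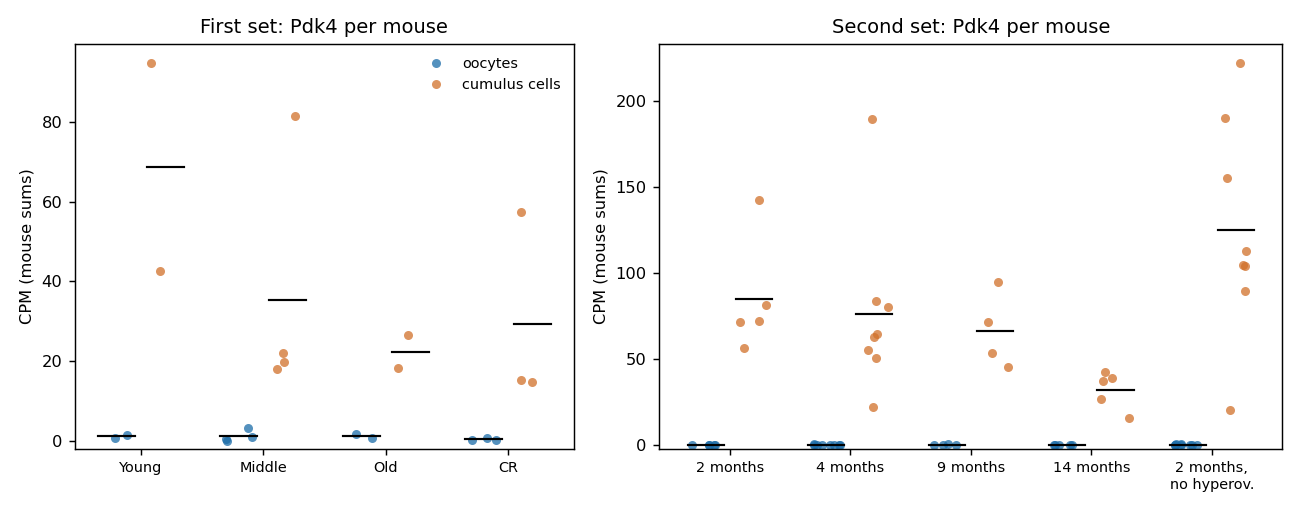
Pdk4 in oocytes and cumulus cells in CPM, each point the sum over the libraries of 1 mouse, with bars at the group means, for both sets. Oocytes lie near 0. In cumulus cells the 14mo mice, at 15.7 to 42.6 CPM, lie below the 2mo mice, at 56.8 to 142 CPM, and in the first set the Old mice lie below the Young mice while 1 Middle mouse and 1 CR mouse stand high.

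The 3 genes listed as theca markers were Cyp17a1, Insl3 and Lhcgr. In the second set their highest counts in a library were 116, 1.5 and 561, and the cells behind this RNA were not determined. They summed to 6.55 to 65.4 CPM in the cumulus libraries of 14mo mice against 1.33 to 11.3 CPM in those of 2mo mice. All 3 were detected in both groups. The 5 markers of luteinised granulosa cells summed to 31.3 to 60.5 CPM against 11.99 to 70.9 CPM, and the 10 cumulus markers to 5325 to 8845 CPM against 4680 to 7154 CPM. Their part in the Pdk4 values was not tested. In the first set, Pdk4 in cumulus cells stood at 42.6 and 94.9 CPM in Young, at 81.5, 22.1, 18.1 and 19.8 in Middle and at 26.5 and 18.2 in Old mice. Old minus Young gave a log2 difference of -1.63 (-3.25 to -0.02, FDR = 1), with no overlap, but with 2 labels a group 39.6% of all genes did not overlap and 0.0146% passed. Leaving out 1 label gave -2.08 (without the Young mouse at 42.6 CPM) to -0.92 (without the one at 94.9 CPM). Over libraries it was -1.80 and passed (FDR = 0.0021, 1.59% of genes).

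Ppargc1a, near the limit of detection in cumulus cells, gave log2 differences of -1.31 (-3.20 to 0.57) at 4 months, -1.45 (-4.04 to 1.15) at 9 months and 0.03 (-1.89 to 1.95) at 14 months, intervals too wide to place it. Cpt1a stood at 73.8, 87.3, 73.4 and 85.9 CPM in the 4 9mo mice, each above the 5 2mo mice (47.5 to 71.8 CPM), with a log2 difference of 0.36 (0.03 to 0.69, FDR = 0.60) where 2.66% of genes did not overlap. In 14mo mice Cpt1a stood at 48.1 to 85.8 CPM and overlapped with 2mo mice. Acadm was at 32.7, 16.1, 22.9 and 24.4 CPM in 9mo and at 11.7 to 21.7 CPM in 2mo mice, a log2 difference of 0.58 (0.12 to 1.05, FDR = 0.53). Over libraries it was 0.62 and passed (FDR = 0.037, 1.36% of genes). In the fit of all groups over mice, none of the 10 genes passed at 4, 9 or 14 months against 2 months, in edgeR with 0%, 0.0391% and 0.0605% of all genes passing. The 0 at 4 months stood beside 1644 genes at an unadjusted p under 0.05. In the first set none passed in Middle or Old against Young cumulus cells either, with 0.00366% of genes passing for Middle.

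In oocytes of the second set the abundant genes were level with age. Hadha stood at 51.1 to 60.4 CPM in 2mo and 51.7 to 57.2 CPM in 14mo mice, a log2 difference with a 95% interval of -0.13 to 0.13. Cpt2 was at 91.2 to 107 CPM in 2mo and 80.8 to 102 CPM in 14mo mice (-0.05, -0.19 to 0.09), and Ppard at 38.9 to 46.9 and 33.3 to 43.5 CPM (-0.09, -0.25 to 0.08). For these 3 genes the intervals leave room for changes of at most 0.25 on the log2 scale at 14 months, whereas those of Pdk4 (-3.99 to 1.49) and Cpt1a (-0.60 to 0.78) are wide. None of the 9 genes tested (Cpt1b had too few counts) passed in 4mo, 9mo or 14mo against 2mo oocytes, where 0%, 0.0632% and 0.208% of all genes passed. At 4 months 1325 genes had an unadjusted p under 0.05.

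**Figure D3:**
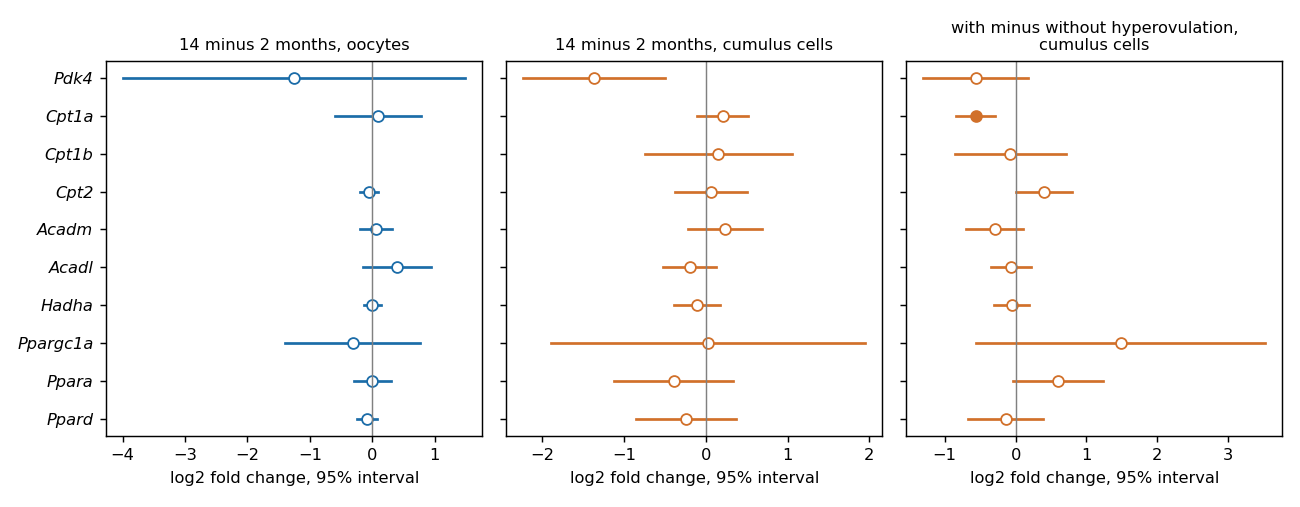
Log2 differences of the 10 genes in the second set, with 95% intervals, open points marking FDR of 5% or more. The panels show 14 minus 2 months in oocytes (without Cpt1b), the same in cumulus cells, and with minus without hyperovulation in cumulus cells. In the panels of age no point is filled. There the cumulus interval of Pdk4 lies wholly below 0, and the oocyte intervals of Hadha, Cpt2 and Ppard are short. In the panel of hyperovulation only the point of Cpt1a is filled.

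In the oocytes of the first set, none of the 10 genes passed in Middle or Old against Young mice, where 0% of all genes passed over mice (985 and 2868 genes had an unadjusted p under 0.05). Ppargc1a had 4 and 2 counts in the Young and 9, 18, 2 and 6 counts in the Middle mice, a log2 difference of 2.35 (0.66 to 4.03, FDR = 1) with no overlap, as for 10.9% of genes. The Middle mouse with 2 counts had 1 oocyte library, while the Young mice had 4 and 12. With libraries as units, Acadm (0.48), Cpt2 (-0.38) and Ppard (-0.71) passed in Old against Young oocytes, 3 of 10 beside 16.5% of all genes. Ppard stood at 56.8 and 54.9 CPM in Young and at 26.5 and 46.5 CPM in Old mice, and the lower value belongs to the label that joins more than 1 mouse. That label held 11 of the 16 Old oocyte libraries, and its median level of cumulus markers, 6.24% of a cumulus library, was the highest of the first set. Its median share of mitochondrial counts was 1.43%, against 0.529% to 0.636% in the Young mice and the other Old mouse, and its libraries held from 36.2% of the median level of oocyte markers. The part of these in the values was not tested. Over mice, the log2 difference of Cpt2 was -0.31 (-0.82 to 0.21) with that label, 0.01 without it and -0.65 without the other Old mouse. That of Ppard was -0.62, -0.25 and -1.06. Each of these fits leaves 1 Old label, assumed to vary like the other groups.

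Under CR, the oocyte levels of the receptor Ppard lay below those of Middle mice without overlap, but the difference did not pass the test over mice. Its levels were 34.9, 31.7 and 35.03 CPM in CR and 56.4, 40.7, 37.3 and 54.1 CPM in Middle mice fed ad libitum, a log2 difference of -0.49 (-0.90 to -0.08, FDR = 0.14), where 21.7% of genes did not overlap. Acadm stood at 9.74, 10.8 and 10.4 CPM in CR and at 5.82, 7.56, 11.2 and 6.61 CPM in Middle mice, a log2 difference of 0.48 (0.02 to 0.95, FDR = 0.20). The Middle mouse at 37.3 CPM for Ppard and 11.2 CPM for Acadm had 1 oocyte library. Hadha differed by -0.17 (-0.42 to 0.08, FDR = 0.44) and Cpt2 by 0.08 (-0.31 to 0.48, FDR = 0.84). None of the 10 genes passed over mice, where 7.71% of all genes did. With libraries as units Acadm, Hadha and Ppard passed, 3 of 10 beside 21.9% of all genes.

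Pdk4 in these oocytes stood at 0.094, 0.75 and 0.27 CPM in CR and at 3.11, 0.37, 0 and 1.03 CPM in Middle mice, a log2 difference of -1.55 (-3.20 to 0.10, FDR = 0.25). The highest value came from a mouse whose oocyte libraries held a median of 6.19% of the cumulus markers of a cumulus library. The value of 0 came from a mouse with 1 oocyte library. Without the 18 oocyte libraries of the first set above 5%, the log2 difference of Pdk4 was -0.41 (-2.04 to 1.22), that of Acadm 0.29 (-0.23 to 0.81) and that of Ppard -0.39 (-0.76 to -0.03). In the same fit Pdk4 in Middle against Young oocytes went from 0.09 to -1.81 (FDR = 0.57). CR libraries were also deeper, with a median of 3578882 against 2332126 counts in Middle oocytes, and with CR libraries thinned to the median total of the Middle group the log2 difference of Ppard was -0.47 and that of Acadm 0.52, neither past the threshold.

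**Figure D4:**
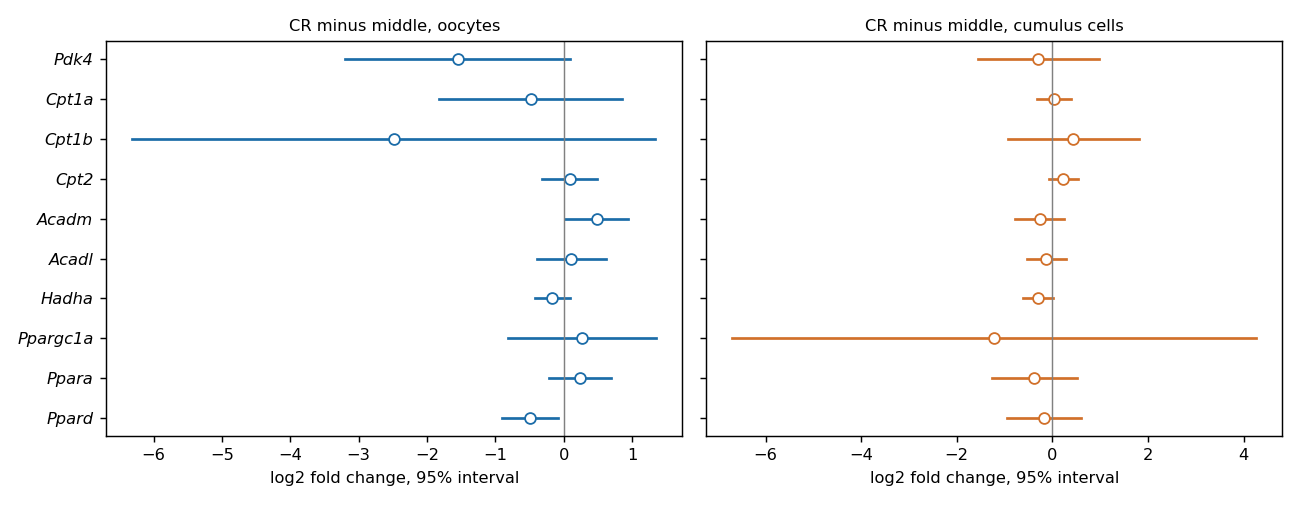
Log2 differences of the 10 genes, CR minus Middle, in oocytes and in cumulus cells, with 95% intervals, open points marking FDR of 5% or more. The interval of Ppard in oocytes lies below 0 and that of Acadm above 0, and in cumulus cells every interval holds 0.

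In cumulus cells no gene of the list stood apart under CR. Pdk4 was at 15.3, 14.9 and 57.5 CPM in CR and at 81.5, 22.1, 18.1 and 19.8 CPM in Middle mice, so that each group held 1 high mouse (log2 difference -0.29, -1.56 to 0.97). Cpt1a was at 73.2 to 87.1 and 63.7 to 95.01 CPM (0.03, -0.32 to 0.39). The lowest FDR of the 10 genes was 0.51, that of Hadha (-0.30, -0.62 to 0.02), and 0.0658% of all genes passed. The difference of CR effects between the cell types, cumulus cells minus oocytes, was largest relative to its error for Acadm, at -1.01 (-1.78 to -0.24, FDR = 0.24 where 0.462% of genes passed). Over libraries it was -0.92 and passed (FDR = 0.00087, 9.73% of genes). Without the oocyte libraries rich in cumulus markers it was -0.30 (-1.15 to 0.55) over mice. Among all genes, 12 of the calls in this test were higher and 142 lower under TMM, but 208 and 203 under DESeq2's size factors, with which the Acadm value was -0.72.

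Of the 74 genes of the pathway lists tested in oocytes under CR, 9 rose and 1 fell and 64 did not pass, beside 7.71% of all genes that passed, with a median log2 difference of -0.07 against 0.02 over all genes. They included 3 of the 10 genes of the pyruvate dehydrogenase complex and its kinases and phosphatases, all higher. Pdp2, a phosphatase that reactivates the complex, rose from 6.52 ± 1.70 CPM (SD, n = 4) to 15.5 ± 1.4 (n = 3), by 1.19 on the log2 scale (edgeR, FDR = 0.0027). Vldlr, the receptor of very low density lipoprotein, rose from 4.32 ± 2.5 to 14.9 ± 5.2 CPM (1.76, edgeR, FDR = 0.019), and Plin2, a coat protein of lipid droplets, from 7.77 to 16.0 CPM (1.037, edgeR, FDR = 0.0098). Lipe, the hormone-sensitive lipase, fell from 14.3 to 7.07 CPM (-0.99, edgeR, FDR = 0.040). CR oocyte libraries were deeper, and values of these pathway genes with thinned CR libraries are not given here. The paper states that CR mice were housed individually with 1 feeding a day. Where this differed from the other mice, it cannot be told apart from the amount of food. In cumulus cells none of 72 passed. The CR effect differed between the cell types for Vldlr (-2.35, edgeR, FDR = 0.029) and for Abcd3, a peroxisomal transporter (-1.40, edgeR, FDR = 0.020), both lower in cumulus cells minus oocytes.

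Hyperovulation was the one comparison of conditions in which a gene of the list passed over mice in the fit of all groups with the filter on low counts. This gene was Cpt1a in cumulus cells. The 5 hyperovulated 2mo mice stood at 71.8, 47.5, 68.5, 71.5 and 52.5 CPM (62.3 ± 11.5, SD), and the 8 2moNoH mice ran from 64.5 to 114 with a median of 91.1 (92.2 ± 15.02). The groups overlapped at the lowest 2moNoH mouse. With minus without hyperovulation gave -0.56 on the log2 scale (-0.84 to -0.29, edgeR, FDR = 0.025), 1 of 10 genes beside 1.83% of all genes. With libraries as units the FDR was 0.00011 and with DESeq2 0.0015. With the prefix of the library name (B1 or B2) as a covariate it was 0.013. Both prefixes held every group, and the labels do not say what they stand for. In a fit of these 2 groups alone the FDR was 0.086, and leaving out 1 mouse raised it to 0.090, 0.075 and 0.052 for 3 of the 13 mice (2mo2, 2mo36 and 2moNoH13).

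**Figure D5:**
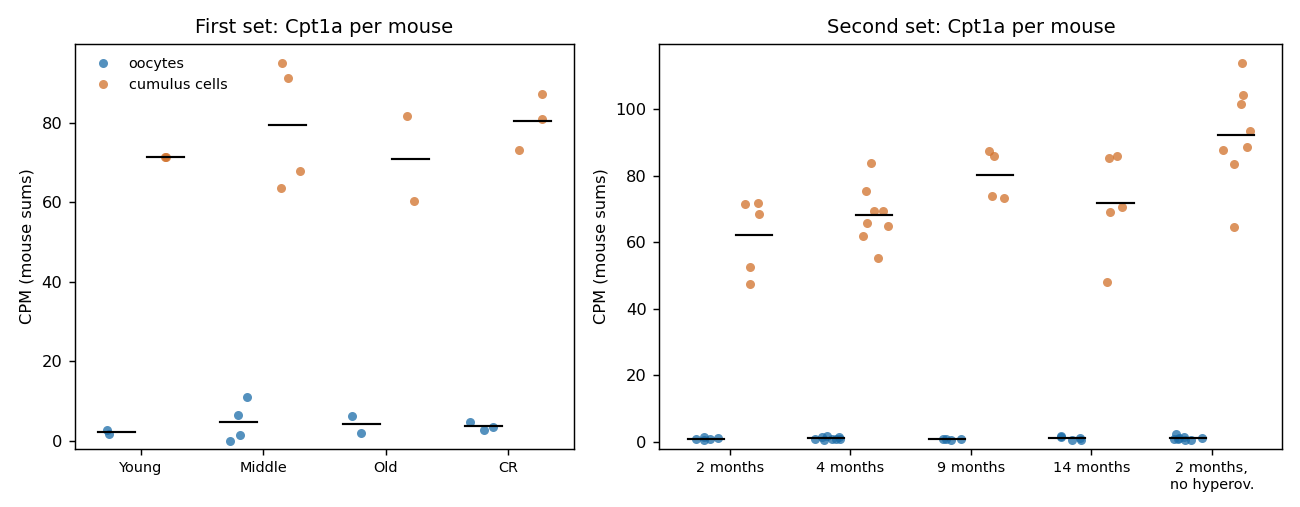
Cpt1a in oocytes and cumulus cells in CPM, each point the sum over the libraries of 1 mouse, with bars at the group means, for both sets. In cumulus cells the 2moNoH mice, at 64.5 to 114 CPM, lie mostly above the 2mo mice, at 47.5 to 71.8 CPM.

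The 10 cumulus markers summed to 4680 to 7154 CPM in 2mo and 3254 to 5928 CPM in 2moNoH mice, and the markers of luteinised granulosa cells ran from 11.99 to 70.9 and from 11.1 to 32.6 CPM. Their part in the Cpt1a difference was not tested. The markers of adipocytes, a rich source of fatty acid genes, summed to at most 3.27 CPM in these cumulus groups, with Adipoq at 0 in each. Cpt2, lower in cumulus cells than in oocytes, differed by 0.40 with hyperovulation (0.01 to 0.80, FDR = 0.32), and passed with libraries as units (FDR = 0.032), where 2 of the 10 genes passed beside 11.8% of all genes. Pdk4 stood at 20.7 to 222 CPM in 2moNoH mice with a median of 109, and its log2 difference was -0.56 (-1.30 to 0.18, FDR = 0.50). It equalled that of Cpt1a in size, but its interval held 0.

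In oocytes, none of the 9 genes tested passed with against without hyperovulation, and 0% of all genes did in edgeR (1232 had an unadjusted p under 0.05). Hadha differed by -0.03 (-0.15 to 0.09) and Cpt2 by -0.04 (-0.17 to 0.08). The difference of the hyperovulation effects between the cell types was -0.41 for Cpt1a (-1.05 to 0.23, FDR = 0.88) and did not pass for any of the 10 genes, where 0.352% of all genes passed. A cumulus-only effect on Cpt1a was thus not shown. Of 73 pathway genes tested in cumulus cells, 1 passed, which is no more than the 1.83% of all genes. This was Acacb, the acetyl-CoA carboxylase whose product malonyl-CoA inhibits Cpt1 enzymes, at 149 ± 37 CPM (SD, n = 5) with and 87.9 ± 22.3 (n = 8) without hyperovulation, a rise of 0.76 on the log2 scale (edgeR, FDR = 0.013). No pathway gene passed in any comparison of ages, in either cell type.

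Between mice, Pdk4 was the most variable of the 10 genes in cumulus cells. On the scale of log2(CPM + 1), the SD of its cumulus level between mouse means was 0.75 in the second set. Between complexes of the same mouse it was 0.81, below the 0.86 of Ppara. Within and between mice, the SD was 0.44 and 0.23 for Cpt1a and 0.32 and 0.17 for Hadha. In oocytes, Hadha (0.17 and 0.096) and Cpt2 (0.19 and 0.12) varied little. Over the cumulus sums of the 30 mice of the second set, which share libraries and depth with each gene compared, the genes with the highest Pearson correlation with Pdk4 among 9709 were Lats2 (r = 0.874), Il17ra (0.873) and Fam214a (0.873). Of the list, Acadl (0.443), Ppard (0.440), Hadha (0.396), Acadm (0.290) and Cpt1a (0.228, rank 3296) were far lower, and Cpt2 ran the other way (-0.605, rank 9422). The correlations pool all groups of the set without removing group means, so differences between groups enter them. The mean of Pdk4, for example, was 32.3 CPM in 14mo and 125 CPM in 2moNoH mice. These correlations describe the samples at hand, and no test was made.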

How the data were processed

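RNA of single GV oocytes and of their cumulus cells was measured in 401 libraries. The authors mapped the reads to GRCm38 with HISAT2 2.0.5 and used featureCounts 1.5.1 to count them on genes of the GENCODE annotation. Reads that map to several places were shared, so the deposited values are expected counts, not whole in 36.8% and 35.1% of nonzero cells of the 2 sets. They were rounded, although the design had assumed plain counts. The authors also deposited RPKM values. Those of the CR libraries did not follow from the counts (0.761% within 0.1%, against 100% elsewhere), so levels were computed from counts. RPKM of the libraries fed ad libitum gave only the lengths used per kilobase. Symbols were found for 43429 of 43633 identifiers.

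Counts were summed per mouse label and cell type and tested with the quasi-likelihood F test of edgeR 4.0.16 (R 4.3.3, TMM) in 1 fit of all groups of a set. Genes detected in fewer than 5 libraries were left out, with Benjamini-Hochberg FDR at 5% over all genes. Intervals (95%) are Wald intervals of the contrast. Where labels do not show separate animals, the spread may be technical. Libraries of 1 mouse are not independent, so FDR values over libraries can be too small. Alternatives were DESeq2 1.42.0, DESeq2's size factors in edgeR, libraries as units (the study's design) and other filters. Others were the prefix of the library name in the second set, thinned CR libraries, the mouse as a block and each mouse left out. The test was checked on simulated counts.

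The members and lists were chosen with earlier results of these data known. The text names the 10 members, up to 3 pathway genes with the largest rise and fall in each comparison (FDR under 5%, mean of at least 5 CPM), and the 3 genes of at least 10 CPM most correlated with Pdk4 (log2 of CPM plus 0.5). Of these, 1 pathway gene is not reported here. Oocytes and cumulus cells came from the same animals, so labels pair them. Their deviations from the group means correlated at -0.06 to 0.12 (median 0.06) over 11 labels and at -0.08 to 0.19 (median 0.09) over 30. Depth and its range per cell type are given with the results, and counting limits use 3 counts. No 2 libraries were duplicates (highest correlations 0.989 and 0.988). Sequences are from RefSeq, GRCm38.p6. Figures were drawn with matplotlib 3.10.9.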

Additional observations from a re-analysis of the deposited data

Results flagged for a closer look

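In 96 tests, each of 1 gene in 1 group of 4 to 8 mice, 12 flagged a mouse far from the others by Dixon's ratio. The rate of about 1 in 20 holds for independent, normally distributed values, and these tests share mice. For Pdk4 in cumulus cells, 1 Middle mouse stood at 81.5 CPM (others 18.1 to 22.1) and 1 4mo mouse at 189.7 CPM (others 22.1 to 83.8). Both are the highest values of their groups.

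For Ppara in cumulus cells, 1 Middle mouse with a single library stood at 13.8 CPM (others 3.21 to 5.01), 1 14mo mouse at 8.55 CPM (others 1.62 to 3.60) and 1 2moNoH mouse at 7.24 CPM (others 1.95 to 3.74). The same 14mo mouse stood at 64.7 CPM for Cpt2 (others 27.7 to 38.3), and another 14mo mouse at 4.86 CPM for Ppard (others 12.1 to 14.9). For Acadl, 1 9mo mouse stood at 20.8 CPM (others 23.9 to 24.1).

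In oocytes, 1 2mo mouse was high for Cpt2 (107 CPM, others 91.2 to 95.8) and Ppard (46.9 CPM, others 38.9 to 40.3). Among 2moNoH mice, 1 stood at 2.49 CPM for Cpt1a (others 0.695 to 1.42) and another at 46.0 CPM for Hadha (others 52.9 to 58.9).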

How the results depend on the processing

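With libraries as units, the number of the 10 genes that passed went from 0 to 3 in CR against Middle oocytes and in Old against Young oocytes, and from 0 to 1 in Old against Young cumulus cells, in the cell type by diet interaction and in 9mo and 14mo against 2mo cumulus cells, and from 1 to 2 with against without hyperovulation in cumulus cells. Libraries of 1 mouse share their animal, so these added calls can be too many. Without a filter on low counts the number was 2 in CR against Middle oocytes (Pdk4 and Ppard). In fits of the compared groups alone it was 1 at 14 months in cumulus cells (Pdk4) and 0 for hyperovulation. Leaving out each mouse gave 0 to 1 for hyperovulation in cumulus cells and moved no other count, and without the label that joins mice the Cpt2 value in Old against Young oocytes turned to 0.01 (-0.65 without the other label). In all, 127 of 137 counts under other settings and 154 of 157 under leaving out a mouse stayed near those reported. Most of the reported counts were 0, and leaving out a mouse leaves fewer to test, so this tally says little about robustness. The mouse as a replicate block left 7 and 9 genes between cell types, 0 in both interactions, and changed no call. Over all genes, DESeq2's size factors gave 411 calls in the diet interaction against 154, 4 against 18 for CR in cumulus cells, 17 against 11 at 9 months in cumulus cells and 9 against 17 at 9 months in oocytes. The share of higher calls went from 34.2% to 48.5% in the interaction with hyperovulation and from 47.1% to 66.7% at 9 months in oocytes. The cause of these differences was not tested. Depth limits Pdk4, Cpt1b and Ppargc1a in oocytes, where most libraries hold no count of Pdk4.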
